A study of Mus musculus with 15 samples.

Results

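The 36 genes described here are T, B and natural killer (NK) cell genes, measured in whole mouse liver tumors on 1-colour Agilent arrays with 1 array per tumor. They were taken by name: every non-control probe whose gene name in the scanner files is 1 of the 36 was used, which gave 48 probes of the 55681 on the array and 36 of its 23373 gene symbols. The study asked how liver cancer in mice that lack p53 in the liver differs from liver cancer in mice that keep it, with iron metabolism as its main question. There were 15 tumors in 3 groups of 5. The p53f/f HCC were hepatocellular carcinomas of control mice that carry floxed Trp53 alleles without the deletion. The p53LKO HCC were hepatocellular carcinomas of mice with a liver-specific Trp53 deletion, and the p53LKO ICC were tumors of mice with the same deletion that carry the label ICC, commonly short for intrahepatic cholangiocarcinoma, a cancer of bile duct type. The Cre driver of the deletion is not given in the sources used here. All mice had received carbon tetrachloride (CCl4), a liver toxin that causes chronic damage and fibrosis, at 0.5 µl/g for 16 weeks, with an injection every 3 days according to the labels, and were of the C57/BL6J background. The methods of the study give another spacing of the injections. The study names male mice for its comparison of the HCC groups. It gives ages for its mice but not for each arrayed tumor, and reports that tumor formation was delayed in p53f/f mice. Age may thus differ with genotype between the HCC groups and cannot be told apart from it here. Of the mice with ICC, 4 also gave an HCC of that comparison in male mice. The sex of the other, mouse 3977, is not given in the sources used here. Mouse 3717 gave 2 of the p53f/f HCC, and 4 p53LKO mice gave both an HCC and an ICC, so the tumors are not all from separate animals.

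T cells recognise antigen with a receptor that signals through the CD3 chains, and the kinases Lck and Zap70 carry that signal into the cell. Helper T cells carry CD4 and killer T cells carry CD8, while B cells carry CD79a and CD79b beside their antigen receptor and the surface protein Ms4a1 (CD20). Killer T cells and NK cells destroy targets with granzymes and perforin, and activated T cells carry receptors such as PD-1 (Pdcd1), ICOS and CTLA-4 that restrain or sustain them. In a whole tumor such transcripts come mostly from infiltrating cells, and fewer cells of a type cannot be told apart from less RNA per cell.

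A level below is the log2 of the processed signal of a gene's brightest probe minus the 75th percentile of all non-control probes of the same array, so 0 is that percentile and a step of 1 is a doubling. Levels of different probes cannot be set against each other. A gene was tested in a comparison if at least 3 arrays of either group had its probe well above background, and it is said to rise or fall if limma's moderated test gave a Benjamini-Hochberg adjusted p under 0.05, over all probes tested, and a fold change over 2.

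The arrays differed in sensitivity. Between 55.1% and 70.1% of probes stood above background on the p53f/f HCC arrays, 37.0% to 62.1% on the p53LKO HCC arrays and 42.5% to 47.0% on the ICC arrays. All p53f/f HCC lay in the upper row of a slide and all ICC in the lower row, and the p53LKO HCC were split, with mice 3976 and 5283 in the lower row. Those 2 arrays had 46.4% and 37.0% of their probes above background. Markers of both tumor types were checked against the labels. Of 7 biliary markers tested, 4 were higher in ICC than in p53LKO HCC and 0 were lower, led by Epcam, which was at least 94.0-fold higher (not above background in any p53LKO HCC), and Spp1 (log2 fold change 4.73). Of 10 hepatocyte markers, 5 were lower in ICC and 0 were higher.

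In p53LKO HCC against p53f/f HCC few lymphocyte genes passed the test, and Zap70 had the largest change. Of the 36 genes, 31 were tested, 1 rose (Klrb1c) and 2 fell (Zap70 and Pax5), of which Klrb1c and Pax5 were above background in 1 group alone, while over all genes tested 5.3% rose and 9.97% fell. The members had a median change of -0.16 on the log2 scale, against 0.08 for all genes. No member had all p53LKO HCC above all p53f/f HCC, while 8.36% of all genes did. In ICC against p53LKO HCC, of 30 tested 11 rose and 1 fell, while 12.8% of all genes rose and 15.3% fell, and the median was 0.62 over the members against -0.18 over all genes. The genes that rose were Cd3d, Cd3g, Cd2, Cd5, Cd6, Zap70, Icos, Pdcd1, Gata3, Klrd1 and Ms4a1, and the gene that fell was Cd4. The comparisons share the 5 p53LKO HCC arrays, so they are not independent of each other.

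**Figure D1:**
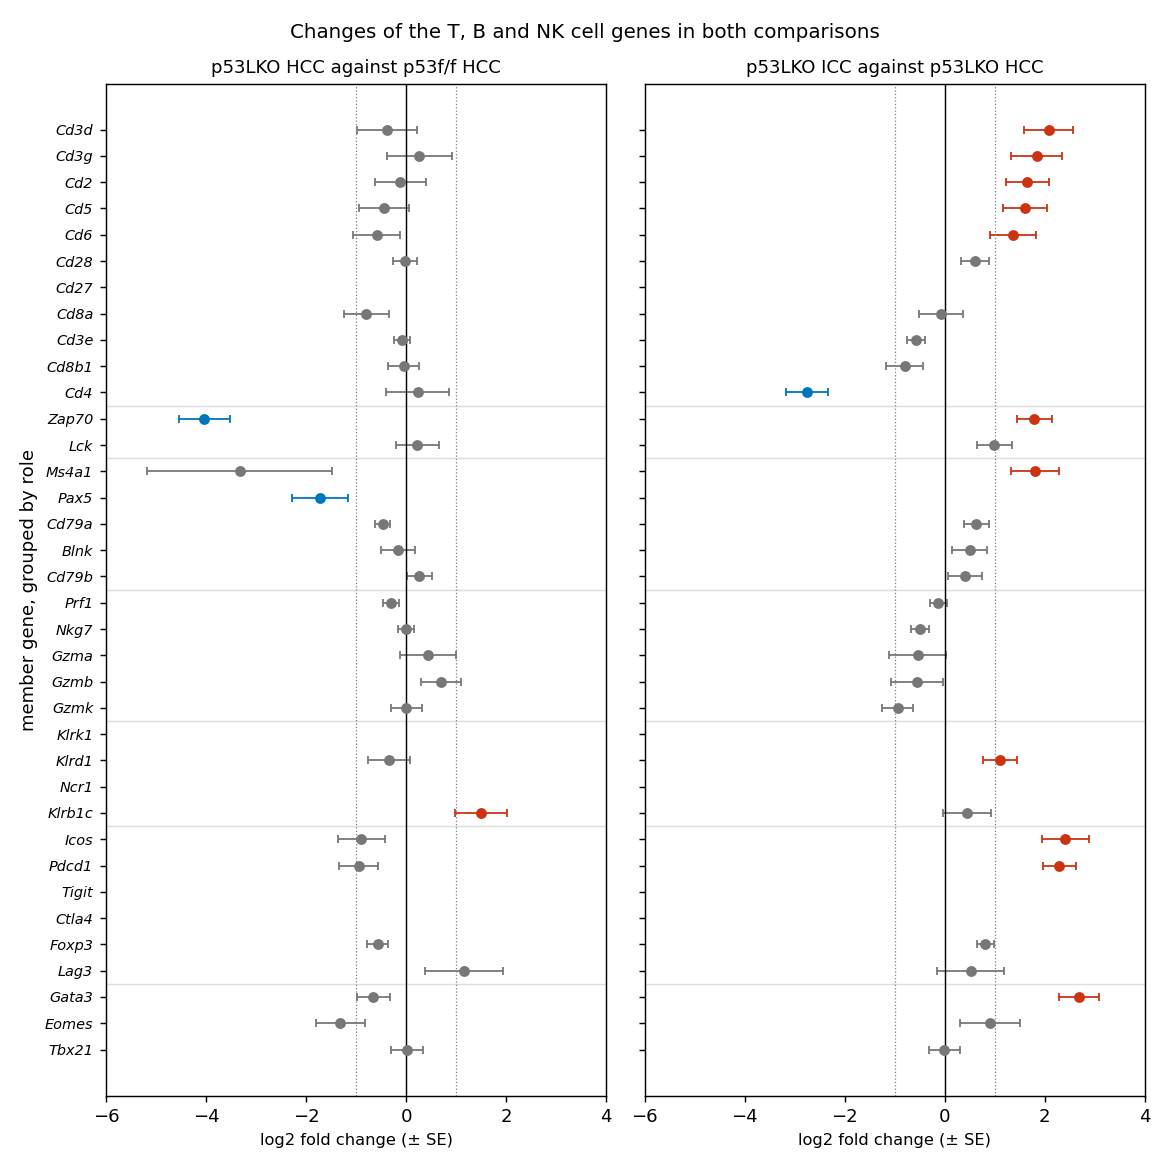
Log2 fold change of each member in both comparisons, with its SE from limma, ordered by role, where red points rose, blue points fell, grey points were not called, genes without a point were not tested, and dotted lines mark a fold change of 2. In the left panel 1 gene is red and 2 are blue, in the right panel 11 are red and 1 is blue, and the left Ms4a1 point includes a spot in a bright patch of its array.

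The sequences that bear most on the results are those behind genes of 1 complex that were not all called and behind 2 genes whose probes can be compared. Cd3d, Cd3g and Cd3e encode the δ, γ and ε chains of the CD3 complex and lie close together on chromosome 9. Their 250 bases before the transcription start (RefSeq, GRCm38.p6) are given 5′ to 3′ on the strand of the gene, in order Cd3d (chr9:44981536-44981785, + strand), Cd3g (chr9:44980432-44980681, - strand) and Cd3e (chr9:45009612-45009861, - strand). Capitals mark 4 short motifs of factors known in lymphocytes, searched on both strands: AGGAAG (ETS), TGTGGT (RUNX), CTTTGA (TCF) and CAGGTG (E-box).
Cd3d: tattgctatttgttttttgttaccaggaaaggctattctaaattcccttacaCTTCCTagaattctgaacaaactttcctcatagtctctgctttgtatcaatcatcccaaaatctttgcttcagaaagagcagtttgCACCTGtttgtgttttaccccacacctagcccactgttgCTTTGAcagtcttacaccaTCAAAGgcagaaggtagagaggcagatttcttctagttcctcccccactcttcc
Cd3g: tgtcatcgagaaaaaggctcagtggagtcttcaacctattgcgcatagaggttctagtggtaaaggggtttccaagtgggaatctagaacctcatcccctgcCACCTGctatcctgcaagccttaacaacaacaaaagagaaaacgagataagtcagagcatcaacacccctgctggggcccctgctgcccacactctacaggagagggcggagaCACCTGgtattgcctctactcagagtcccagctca
Cd3e: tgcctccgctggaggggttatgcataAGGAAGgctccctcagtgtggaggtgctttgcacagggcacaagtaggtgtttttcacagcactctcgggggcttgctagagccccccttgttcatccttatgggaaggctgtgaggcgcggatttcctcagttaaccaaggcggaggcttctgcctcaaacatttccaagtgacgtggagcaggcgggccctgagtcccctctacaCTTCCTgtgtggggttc

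The Cd3d window held 1 ETS, 2 TCF and 1 E-box match, that of Cd3g held 2 E-box matches, and that of Cd3e held 2 ETS matches, with no overlap between matches. The RUNX letters were in none of the 3 windows. Of the 36 members, 26 were matched in the promoter table. An ETS match stood before 14 of these 26 genes, a RUNX match before 10, a TCF match before 3 and an E-box match before 11. These genes have 31 windows in the table, of which 16 held an ETS match, 11 a RUNX match, 3 a TCF match and 12 an E-box match. Among all 32851 windows of the same length, 29.5%, 14.0%, 13.8% and 17.2% held these motifs. A match is a run of letters and was not tested as a binding site.

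The last 30 bases of the 60-base probes of Cd4 and Zap70 are given next, 5′ to 3′ on the strand of the transcript, because the values of these genes are given for both probes. Capitals mark AATAAA, the letters of the usual polyadenylation signal.
Cd4, brighter probe, chr6:124814711-124814770 (mm9, - strand): acagaaaAATAAAggctataAATAAAatgc
Cd4, dimmer probe, chr6:124817706-124817765 (mm9, - strand): gcagtgtctactgagtgaaggtgataaggt
Zap70, brighter probe, chr1:36839542-36839601 (mm9, + strand): ctcccaaagtctacttccgctgtttctgag
Zap70, dimmer probe, chr1:36839315-36839374 (mm9, + strand): tatgcggaactattactacagcctggccag

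The brighter Cd4 probe held the letters AATAAA 2 times and lies nearer to the 3′ end of the gene than the dimmer probe. The array files give positions without naming exons or untranslated regions. Of the 48 probes, 41 have a position and 7 have none. The probe used for Cd79a is placed on chromosome 12 and that of Klrk1 on chromosome 16, whereas RefSeq has these genes on chromosomes 7 and 6, so the values of these 2 genes are uncertain.

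Of the CD3 chains, Cd3d and Cd3g rose in ICC and Cd3e was not called. Cd3d stood at -1.80, -3.33, -0.21, -2.28 and -1.71 in the p53LKO HCC of mice 3976, 5283, 3731, 3733 and 3975, and at 0.33, 0.49, 0.83, 0.03 and -0.64 in the ICC of mice 3731, 3733, 3976, 3977 and 5283. The same order of tumors is kept for the genes that follow. All ICC but that of mouse 5283 lay above every p53LKO HCC, and the HCC of mouse 3731 was the highest of its group. Cd3d rose by 2.08 (SE 0.50, limma adjusted p = 0.0068). Cd3g was at -0.95, -3.55, -0.92, -2.31 and -1.86 in p53LKO HCC and at 0.04, 0.34, 0.72, -0.48 and -1.01 in ICC, so 4 of 5 ICC were above all of the HCC. Its log2 fold change was 1.84 (SE 0.51, limma adjusted p = 0.0135), and the call was lost among the arrays of the lower row alone (2.17, limma adjusted p = 0.0550).

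Cd3e, whose probe lies at chr9:44806828-44806887 (mm9, - strand), was at 2.44, 2.36, 2.51, 2.43 and 2.20 in p53LKO HCC and at 1.47, 1.73, 2.36, 1.73 and 1.81 in ICC. Here 4 of 5 ICC lay below every p53LKO HCC. The log2 fold change was -0.57 (SE 0.18, limma adjusted p = 0.0251), which is under the fold threshold. In p53f/f HCC the level was 2.46 ± 0.26 (SD, n = 5), and the p53LKO HCC differed from it by -0.08 (limma adjusted p = 0.753). Cd3d differed by -0.38 (limma adjusted p = 0.652) and Cd3g by 0.27 (limma adjusted p = 0.780) in that comparison of HCC, in which the groups overlapped for all 3 chains.

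Cd4, the coreceptor of helper T cells, was measured by 2 probes of very different brightness. With the brighter probe the p53f/f HCC of mice 3681, 3715, 3716 and 3717 (2 tumors) stood at 7.19, 3.94, 3.95, 5.92 and 5.80. The p53LKO HCC followed at 6.37, 4.65, 4.98, 5.40 and 6.56, and the ICC at 2.50, 2.15, 3.15, 2.61 and 3.77. Every ICC lay below every p53LKO HCC, and the HCC groups overlapped. Cd4 fell by 2.76 in ICC (SE 0.42, limma adjusted p = 0.00063, exact two-sided permutation p = 0.00794, the smallest that 252 splits of 5 against 5 can give). The difference between the HCC groups was 0.23 (SE 0.64, limma adjusted p = 0.806).

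The dimmer Cd4 probe was at -2.21, -2.45, -2.07, -2.27 and -2.17 in p53f/f HCC. It was at -3.30, -3.44, -3.04, -2.74 and -2.88 in p53LKO HCC, all below the p53f/f HCC, as 16.4% of all probes tested were. In ICC it was not well above background on any array, with a mean of -3.30 ± 0.49 (SD, n = 5) against -3.08 ± 0.29 in p53LKO HCC, 3 of which were above background. It was lower in p53LKO HCC by 0.85 (SE 0.17, limma adjusted p = 0.0042), under the fold threshold. The dimmer probe was at background in ICC and could not show a fall there, so the fall was measured with the brighter probe alone.

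Zap70, the kinase that binds the phosphorylated CD3 chains, had the largest change of all members in the comparison of HCC, and both of its probes showed it. With the brighter probe it stood at 4.85, 2.07, 2.07, 3.07 and 2.71 in p53f/f HCC. In p53LKO HCC it was at -1.20, -1.30, -0.01, -1.71 and -1.18, and in ICC at 1.23, 0.87, 0.78, 0.91 and -0.21. No p53LKO HCC reached the lowest p53f/f HCC, and 4 of 5 ICC lay above all p53LKO HCC and below all p53f/f HCC. Zap70 fell by 4.03 on the log2 scale in p53LKO HCC, a 16.4-fold difference (SE 0.51, limma adjusted p = 0.000266, exact two-sided permutation p = 0.00794). It rose by 1.80 in ICC over p53LKO HCC (SE 0.34, limma adjusted p = 0.0021). The dimmer probe gave -3.56 (SE 0.52, limma adjusted p = 0.0006) and 1.19 (SE 0.31, limma adjusted p = 0.0112) in these comparisons. By the brightest probe Zap70 was the only member whose HCC groups did not overlap, while 10.4% of all genes tested had no overlap in that direction. Of the second probes of members, 8 were tested in each comparison. Between the HCC groups 1 of them fell (Zap70) and 0 rose, while 16% of all probes fell and 3.64% rose. In ICC 3 of them rose (Zap70, Icos and Cd2) and 0 fell, while 12.9% of all probes rose and 13.4% fell. The ICC were not tested against p53f/f HCC, since genotype, tumor type and row of the slide differ at once.

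**Figure D2:**
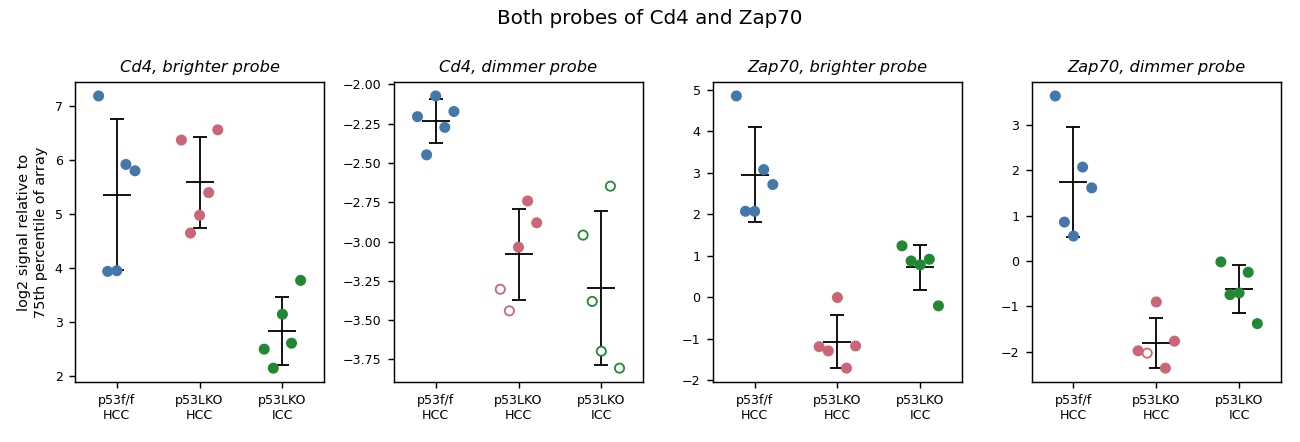
Level of both probes of Cd4 and Zap70 in each tumor, as log2 signal relative to the 75th percentile of the array, with the mean and SD of 5 tumors per group. Open points were not well above background, and each panel has its own axis. The panels of Zap70 show the same order of groups, with p53LKO HCC lowest. Both Cd4 probes have their lowest mean in ICC, where all points of the dimmer probe are open, and the HCC groups overlap for the brighter probe and not for the dimmer one.

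Lck, the kinase that acts before Zap70, was not called in either comparison. It averaged 0.08 ± 0.71 (SD, n = 5) for the p53f/f tumors and 0.31 ± 0.83 for p53LKO HCC, a difference of 0.23 (limma adjusted p = 0.716). In ICC it was at 1.30 ± 0.31, higher than in p53LKO HCC by 0.99 (SE 0.36, limma adjusted p = 0.0418), just under the fold threshold. Lck passed both thresholds without the HCC of mouse 3976 or 3731 or the ICC of mouse 5283 (1.10 to 1.23).

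The T cell surface proteins Cd2, Cd5 and Cd6, which adjust adhesion and the strength of receptor signals, rose in ICC with Cd3d and Cd3g. Cd2 stood at -1.17, -2.07, 0.28, -1.66 and -1.33 in p53LKO HCC and at 0.65, 0.50, 1.00, 0.68 and -0.50 in ICC, a rise of 1.66 (SE 0.42, limma adjusted p = 0.0094). Cd5 stood at -1.38, -3.25, -0.27, -1.96 and -1.63 in p53LKO HCC and at 0.32, -0.21, 0.08, -0.09 and -0.58 in ICC, a rise of 1.60 (SE 0.45, limma adjusted p = 0.0143) that was lost in 1 of 24 other settings, the methods' t-test with adjustment. For both genes 4 of 5 ICC were above every p53LKO HCC, and the exception was the ICC of mouse 5283.

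Cd6 stood at -1.42, -2.74, 0.05, -2.03 and -1.70 in p53LKO HCC and at 0.58, -0.47, -0.15, -0.09 and -0.87 in ICC. Only the ICC of mouse 3731 lay above all p53LKO HCC. The rise of 1.37 (SE 0.46, limma adjusted p = 0.0318) was lost in 11 of 24 other settings, among them the fits without the HCC of mouse 5283, 3733 or 3975 and without the ICC of mouse 3731, 3976 or 3977 (1.08 to 1.36). The dimmer Cd6 probe was above background on 3 p53LKO HCC arrays and on no ICC array, with means of -2.94 ± 0.41 and -3.30 ± 0.80 (SD, n = 5). It could not show a fall in ICC, and it did not show the rise of the brighter probe. The second Cd2 probe rose by 1.04 (limma adjusted p = 0.0222). Cd2, Cd5 and Cd6 differed by -0.11, -0.43 and -0.59 between the HCC groups, with limma adjusted p from 0.362 to 0.885.

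The CD8 chains of killer T cells were not called in either comparison. Cd8a stood at -1.42, -2.57, -3.90, -3.70 and -2.83 in p53f/f HCC. The p53LKO HCC stood at -3.51, -4.23, -2.99, -4.19 and -3.48. In ICC the values were -3.11, -4.76, -2.76, -3.30 and -4.86, and none of those arrays was above background. The HCC groups overlapped, with a difference of -0.80 (limma adjusted p = 0.192), and at background in ICC the probe could not show a fall there. Cd8b1 differed by -0.80 in ICC (SE 0.37, limma adjusted p = 0.102), with 1 of 5 ICC above background against 4 of 5 p53LKO HCC. Without the HCC of mouse 5283 it passed both thresholds (-1.03, limma adjusted p = 0.0372). The costimulatory receptor Cd28 differed by 0.60 in ICC (limma adjusted p = 0.102), and Cd27 was too dim to be tested in either comparison.

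**Figure D3:**
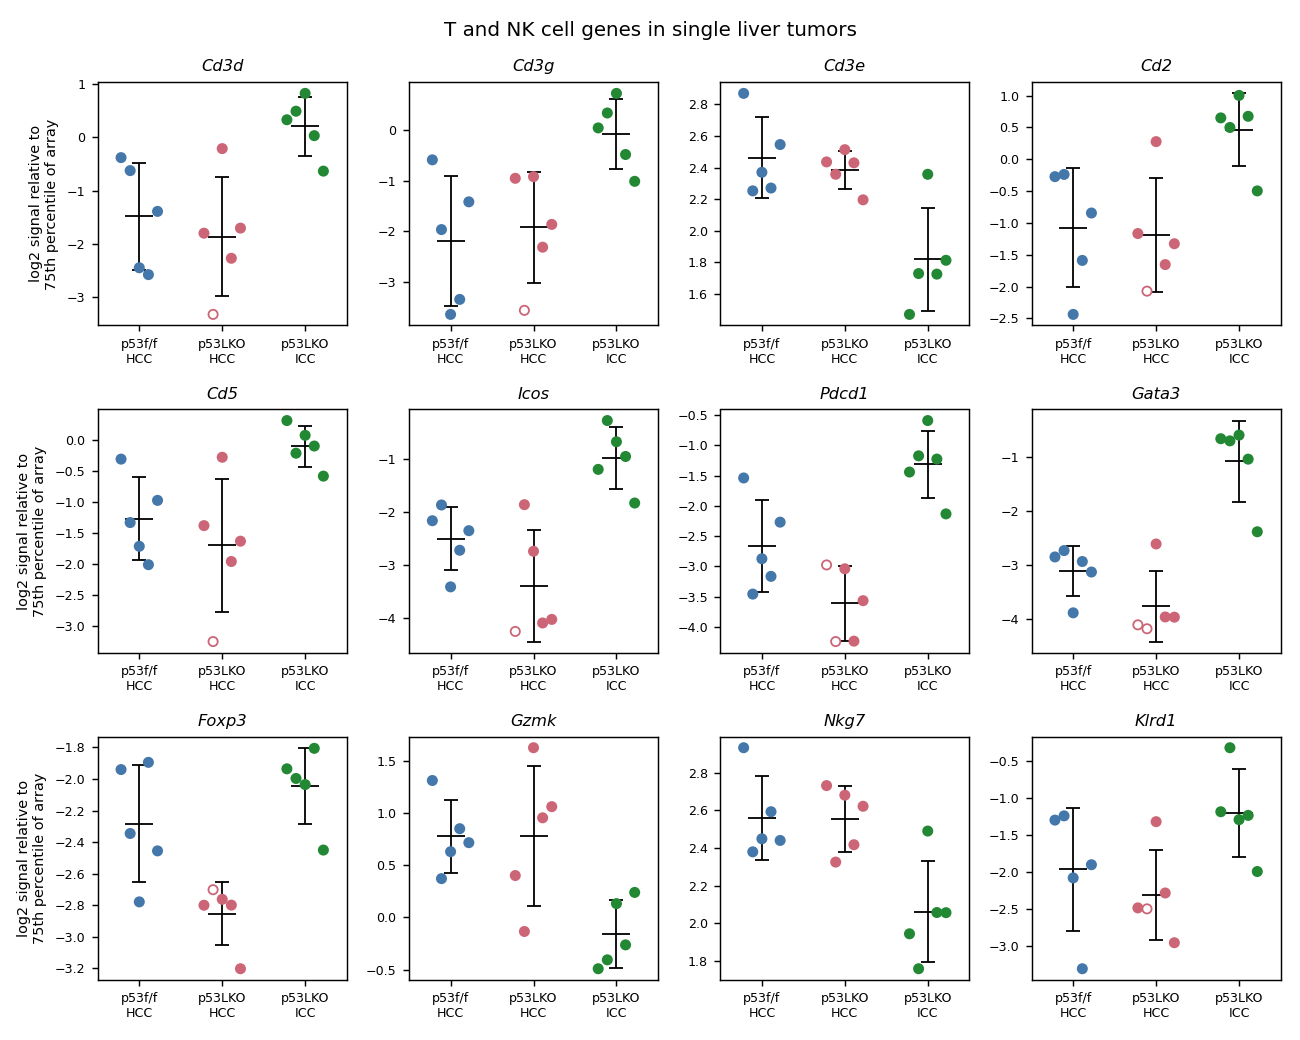
Level of 12 members in each tumor, as log2 signal relative to the 75th percentile of the array, with the mean and SD of 5 tumors per group. Open points were not well above background, and each panel has its own axis. For Icos, Pdcd1, Gata3 and Foxp3 all 5 ICC lie above all 5 p53LKO HCC, while Cd3e, Gzmk and Nkg7 have their lowest mean in ICC.

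Among the checkpoint and regulatory genes, Icos and Pdcd1 rose in ICC without overlap between the groups. Icos, a costimulator of activated T cells, stood at -4.25, -1.85, -2.74, -4.09 and -4.02 in p53LKO HCC and at -1.19, -0.26, -0.67, -0.94 and -1.82 in ICC. The log2 fold change was 2.41 (SE 0.48, limma adjusted p = 0.0025), and a second probe gave 1.91 (limma adjusted p = 0.0008). With the mouse as a block the value for Icos was 2.25 (limma adjusted p = 0.0516), so that call was lost. Pdcd1, which encodes the inhibitory receptor PD-1, stood at -2.97, -4.24, -3.04, -4.23 and -3.56 in p53LKO HCC, of which 3 were above background. In ICC it stood at -1.44, -1.17, -0.59, -1.23 and -2.13. Its rise of 2.30 (SE 0.34, limma adjusted p = 0.00053) kept its call in each of the 24 other settings in which it was tested. Between the HCC groups Pdcd1 differed by -0.95 (limma adjusted p = 0.0868), which passed both thresholds without the p53f/f HCC of mouse 3715 (-1.15, limma adjusted p = 0.0468). Icos differed by -0.89 (limma adjusted p = 0.172), and by -1.28 without the p53LKO HCC of mouse 5283 (limma adjusted p = 0.0293).

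Foxp3, the defining factor of regulatory T cells, stood at -1.94, -2.35, -2.78, -1.90 and -2.46 in p53f/f HCC. In p53LKO HCC it was at -2.80, -2.70, -2.76, -2.80 and -3.20, and in ICC at -1.94, -2.00, -2.04, -1.81 and -2.45. All 5 ICC lay above all 5 p53LKO HCC, but the difference of 0.81 (SE 0.17, limma adjusted p = 0.0037) was under the fold threshold. Between the HCC groups Foxp3 differed by -0.57 (SE 0.20, limma adjusted p = 0.0508). Together with Icos, Pdcd1 and Gata3 it made 4 members whose ICC all lay above the p53LKO HCC, while 10.7% of all genes tested did so. Cd4 was the only member with all ICC below, while 20.1% of all genes tested were so placed.

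Lag3, an inhibitory receptor, differed by 0.52 in ICC (limma adjusted p = 0.548) and by 1.16 between the HCC groups (limma adjusted p = 0.272). It spread widely between tumors, with levels from -3.95 to -0.52 in p53LKO HCC. Ctla4 and Tigit, further inhibitory receptors, were not well above background on more than 1 array of any group and were not tested.

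Of the transcription factors, Gata3, which directs helper T cells and is also known from several epithelia, had the largest rise of all members in ICC. It stood at -4.10, -4.18, -2.61, -3.96 and -3.96 in p53LKO HCC, of which 3 were above background, and at -0.66, -0.70, -0.59, -1.03 and -2.38 in ICC. The rise was 2.69, or 6.46-fold (SE 0.40, limma adjusted p = 0.00054). In p53f/f HCC it stood at -2.85, -2.73, -3.88, -2.93 and -3.13, and the p53LKO HCC differed by -0.66 (limma adjusted p = 0.145). Tbx21 and Eomes, the factors of killer T and NK cells, differed by -0.0067 (limma adjusted p = 0.988) and 0.90 (limma adjusted p = 0.244) in ICC. Eomes differed by -1.32 between the HCC groups (SE 0.49, limma adjusted p = 0.0589) and passed both thresholds without the p53f/f HCC of mouse 3716 (-1.55) or the p53LKO HCC of mouse 3731 (-1.71).

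The cytotoxic granule genes were not among those that rose in ICC. All 5 had a lower mean in ICC than in p53LKO HCC, and 0 passed both thresholds. Their median change was -0.54 on the log2 scale, against -0.18 for all genes. Gzmk stood at 0.40, -0.14, 1.63, 0.96 and 1.06 in p53LKO HCC and at -0.49, -0.41, 0.13, -0.26 and 0.24 in ICC, a difference of -0.94 (SE 0.31, limma adjusted p = 0.0294). It passed the fold threshold too without the HCC of mouse 3976 or 5283 or the ICC of mouse 3976 or 5283 (-1.17 to -1.01). Nkg7, a membrane protein of cytotoxic granules, differed by -0.49 (SE 0.17, limma adjusted p = 0.0373), with 4 of 5 ICC below every p53LKO HCC. Gzma, Gzmb and the perforin gene Prf1 differed by -0.54, -0.56 and -0.13, with limma adjusted p from 0.404 to 0.563, and Gzma by -1.09 without the ICC of mouse 3976 (limma adjusted p = 0.0424). The granule genes differed by -0.30 to 0.70 between the HCC groups and none was called.

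The NK cell receptors were mostly near background. Ncr1, a receptor held to mark NK cells, was not above background on any of the 15 arrays. Klrk1 was above background on 1 array, a p53f/f HCC. Klrd1, which pairs with the NKG2 receptors on NK and killer T cells, stood at -2.48, -2.50, -1.32, -2.28 and -2.96 in p53LKO HCC and at -1.18, -0.32, -1.29, -1.23 and -1.99 in ICC. The ICC of mouse 5283 was the only ICC that did not lie above all p53LKO HCC. Klrd1 rose by 1.10 (SE 0.35, limma adjusted p = 0.0239), which was lost in 8 of 24 other settings, among them the mouse as a block (0.95, limma adjusted p = 0.0851) and the fits without the HCC of mouse 3975 (0.94, limma adjusted p = 0.0524) or without the ICC of mouse 3733 (0.88, limma adjusted p = 0.0543).

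Klrb1c, which encodes NK1.1, was called higher in p53LKO HCC than in p53f/f HCC. It stood at -6.89, -5.73, -5.20, -5.50 and -5.11 in p53f/f HCC, none of them above background. The p53LKO HCC were at -5.20, -2.32, -4.63, -4.55 and -4.21, with 3 of them above background. The means were -5.69 and -4.18 (limma adjusted p = 0.0445). No smallest fold is given, since the p53LKO HCC mean takes in values at background too, among them the highest of -2.32. Klrb1c passed the filter on dim probes through the p53LKO HCC alone, the group in which it is high, so its call is no independent support for a difference. The call was lost in 13 of the 22 other settings in which Klrb1c was tested, among them the fits without the p53f/f HCC of mouse 3681, mouse 3715 or either tumor of mouse 3717 and without the p53LKO HCC of mouse 5283. In ICC none of the arrays was above background.

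Of the 4 B cell genes tested in ICC 1 rose (Ms4a1), where 12.8% of all genes rose, and of the 5 tested between the HCC groups 1 was lower (Pax5, above background in p53f/f HCC alone), where 9.97% of all genes fell. Counts of this size carry little. Cd79a and Cd79b, the signalling chains of the B cell receptor, differed by 0.64 (limma adjusted p = 0.0519) and 0.40 (limma adjusted p = 0.361) in ICC, and by -0.47 (limma adjusted p = 0.0397) and 0.27 (limma adjusted p = 0.447) between the HCC groups. For Cd79a the p53f/f HCC stood at -0.60, -0.71, -0.98, -0.63 and -0.67. The p53LKO HCC stood at -0.90, -1.08, -1.29, -1.38 and -1.29 and the ICC at -1.37, -0.35, -0.09, -0.23 and -0.71. These values are from the probe placed on chromosome 12. The dimmer Cd79a probe, which is annotated to the RefSeq transcript of the gene and has no position in the array files, had means of -3.50 ± 0.26 in p53f/f HCC, -4.32 ± 0.55 in p53LKO HCC and -3.74 ± 0.41 in ICC (SD, n = 5), and was above background on 4, 3 and 0 arrays. Blnk, the adaptor protein behind that receptor, differed by -0.16 between the HCC groups and by 0.50 in ICC, with limma adjusted p of 0.733 and 0.264.

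Ms4a1 had 1 value that came from a bright patch of its array. It stood at -2.00, -1.44, 9.25, -0.87 and -1.31 in p53f/f HCC. The p53LKO HCC were at -1.50, -2.40, -3.12, -2.63 and -3.33, and the ICC at -1.56, -0.24, -0.32, 0.25 and -2.07. The value of 9.25 was on the array of mouse 3716, where 16 of the 24 neighbouring spots were also raised by more than 1.5 over the median of the arrays, and their median level was 7.71 against -2.04 on the other 14 arrays. With that array included, Ms4a1 differed by -3.32 between the HCC groups (SE 1.85, limma adjusted p = 0.189). With the spots in such patches left out, a setting chosen after seeing the data, the difference was -1.19 (limma adjusted p = 0.0343) and was called. No other member spot lay in a patch. The rise in ICC does not use that array and was 1.81 (SE 0.48, limma adjusted p = 0.0113), with 3 of 5 ICC above every p53LKO HCC. Among the arrays of the lower row alone it was 1.17 (limma adjusted p = 0.195), and in a model of all 15 arrays, which takes in that array, the limma adjusted p was 0.373.

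Pax5, the factor that maintains B cell identity, stood at -3.38, -3.19, -3.23, -2.39 and -2.39 in p53f/f HCC, all above background. In p53LKO HCC it stood at -5.50, -2.26, -5.60, -4.99 and -4.82, none above background, so Pax5 was lower there by at least 2.52-fold (means -4.63 and -2.92, limma adjusted p = 0.0387). Pax5 passed the filter on dim probes through the p53f/f HCC alone, the group in which it is high, so its call is no independent support for a difference. The call was lost in 16 of 25 other settings, among them 8 of the 10 fits without 1 tumor, all but those without the p53f/f HCC of mouse 3681 or the p53LKO HCC of mouse 5283. It was also lost with the mean of the tumors of mouse 3717. In ICC, 2 arrays were above background and Pax5 was not tested.

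Within each group, many genes of the T cell surface and CD3 class were highest or lowest in the same tumor. Of the 11 genes of the T cell surface and CD3 class, 9 were highest in the tumor of mouse 3731 among p53LKO HCC and 8 were lowest in that of mouse 5283, whose array had the fewest probes above background, 2 of these 11 among them. Among p53f/f HCC, 9 of the 11 were highest in mouse 3681. Among ICC, 6 were highest in mouse 3976 and 7 were lowest in mouse 5283. Over all 36 members, the HCC of mouse 3731 was highest in 19 and lowest in 3. That of mouse 5283 was lowest in 14 and highest in 10. Such counts were not made over all genes. Without the HCC of mouse 3731 the ICC comparison gave 12 rises and 1 fall among 27 members tested, and without that of mouse 5283 it gave 10 rises and 3 falls among 30. There were also 3 falls without the ICC of mouse 3976, and 2 without the HCC of mouse 3976 or the ICC of mouse 5283. Over all probes, these 5 fits gave 3937 to 4627 rises and 4297 to 4718 falls among 27706 to 32652 tested.

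Wider lists of lymphocyte genes were counted in the same way, and their counts stand beside 12.8% of all genes that rose and 15.3% that fell in ICC, and 5.3% and 9.97% between the HCC groups. In ICC against p53LKO HCC, of 37 further T and NK cell genes tested, 19 rose and 1 fell, with a median of 1.40. The largest rises were of Tox (4.11), a factor of T cell development and exhaustion, and Il7r (3.69), the receptor for interleukin 7, and the fall was of Cd7 (-1.17). Of 22 further B and plasma cell genes 9 rose and 1 fell, with a median of 0.92, led by Spib (8.27) and the complement receptor gene Cr2 (5.50), and Vpreb3 fell by 2.39. Between the HCC groups 0 of 39 further T and NK cell genes rose and 1 fell (Cd244, -1.96), and of 23 B and plasma cell genes 1 rose (Vpreb3, 2.30) and 1 fell (Cd22, -1.68).

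Genes of other cells were read against the same shares, 12.8% that rose and 15.3% that fell in ICC. Of 18 pan-leukocyte genes 6 rose and 0 fell, led by Rac2 (3.63) and Cytip (1.51), and their log2 summed level ranged from 7.04 to 7.85 in ICC against 5.56 to 6.66 in p53LKO HCC. Of 18 myeloid genes 4 rose and 0 fell, led by Lyz2 (2.99) and Itgax (2.11), with a log2 summed level of 8.64 to 9.33 against 8.16 to 8.62. The summed level of the biliary markers was 6.04 to 7.16 against 2.29 to 3.36, and that of the hepatocyte markers 9.77 to 11.04 against 11.27 to 11.66. That of the further T and NK cell genes was 5.56 to 6.27 against 4.19 to 5.45, and that of the further B and plasma cell genes 6.57 to 7.81 against 4.31 to 4.63. Over all 36 members the mean log2 level, in which each gene has the same weight, was -1.27 ± 0.30 in ICC against -1.97 ± 0.29 in p53LKO HCC (SD, n = 5). This mean takes in Ctla4, Tigit, Klrk1 and Ncr1, which were at background in both groups and each had a higher mean in ICC. For the T cell surface and CD3 class the mean was -0.79 ± 0.33 against -1.25 ± 0.63. The log2 summed level, in which bright probes weigh most, was 5.24 to 5.94 in ICC against 5.68 to 6.92 in p53LKO HCC over all members. For the T cell surface and CD3 class it was 3.80 to 4.46 against 4.97 to 6.66, lower in ICC without overlap. Whether these lists have a part in the changes of the members was not tested. Between the HCC groups 0 of the 18 pan-leukocyte genes were called, while of 18 myeloid genes 3 rose, led by S100a9 (2.10) and S100a8 (1.84), and 3 fell, led by Itgam (-2.09) and Flt3 (-1.79), where 5.3% of all genes rose and 9.97% fell.

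**Figure D4:**
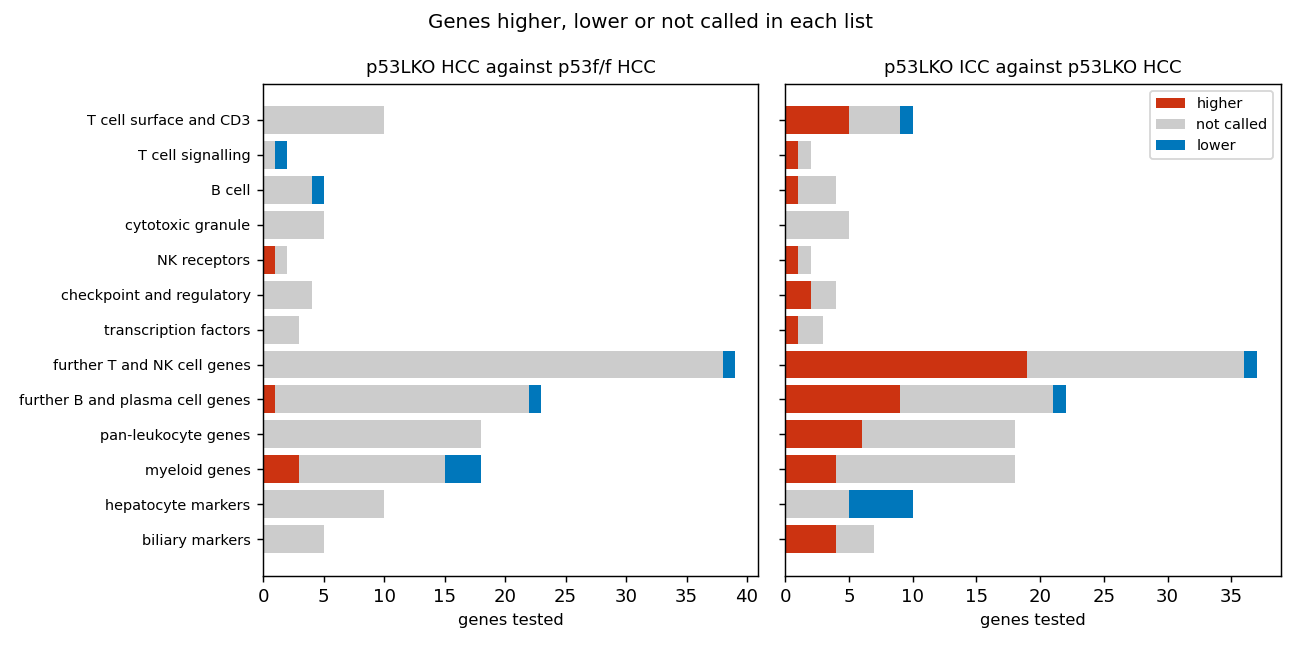
Number of genes tested in each list (x axis) that were higher (red), lower (blue) or not called (grey) in both comparisons; the upper 7 lists are the classes of the 36 members and the others are further lists. In ICC against p53LKO HCC the T cell surface and CD3 class holds 5 rises and 1 fall, the cytotoxic granule class none, and the further T and NK cell genes 19 rises.

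Slide and row of the slide were checked for both comparisons. Slides 1 and 2 held 2 and 3 p53LKO HCC, 4 and 1 p53f/f HCC, and 1 and 4 ICC, so that an arm within a slide could be 1 tumor. The upper row held 3 p53LKO HCC and all 5 p53f/f HCC, and the lower row 2 p53LKO HCC and all 5 ICC. Zap70 differed by -4.26 and -3.68 between the HCC groups within slides 1 and 2, and by -3.92 within the upper row. In ICC, Cd4 differed by -3.01 and -2.73 within the slides and by -2.68 within the lower row, Gata3 by 3.48, 2.33 and 3.07, and Cd3d by 2.90, 1.58 and 2.78. Against the p53f/f HCC, the 3 p53LKO HCC of the upper row alone gave 1 rise and 2 falls, all 3 as before. Over all probes that fit gave 1161 rises and 5846 falls among 36022 tested. Against the ICC, the 2 p53LKO HCC of the lower row alone, a setting chosen after seeing the data, gave 9 rises and 1 fall among 26 members tested, 10 of them as before. Over all probes this lower-row fit gave 2808 rises and 3123 falls among 25454 tested. With only those probes that were above background on every array, 11 members could be tested in the ICC comparison, and 1 rose and 1 fell. Over all probes that filter gave 1467 rises and 2866 falls among 18961 tested.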

How the data were processed

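Total RNA of whole tumors was hybridised to Agilent mouse arrays, 1 per tumor. The authors extracted the scans with Agilent Feature Extraction 10.7.3.1 and deposited the scanner files, in which the processed signal is an intensity after background subtraction, with other columns of flags and positions (mm9). The deposited value table holds log2 values: the log2 processed signal minus the array's 75th percentile, from which a per-probe median was taken that was not over the same arrays for HCC and ICC columns, so it was used as an alternative for the HCC comparison alone. Its columns have medians of -0.325 to 0.344 and correlate with the rebuilt values at 0.99989 or higher.

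Here, the log2 intensity of a probe's spots was averaged, leaving out outlier-flagged spots, and shifted by the 75th percentile of non-control probes. The second Cd8a probe had only flagged spots on 1 p53f/f HCC array, so its fit used 9 arrays. The brightest probe on average over the 15 arrays represented a gene. limma 3.58.1 in R 4.3.3 was fitted to the 10 arrays of a comparison. On simulated data with 200 probes changed by 2.5 on the log2 scale, 85.0% were called in the right direction between HCC groups (36086 probes) and 91.5% in ICC (32670 probes). Arrays have no read depth, so their number and the signal above background set the precision. 0 probes were saturated. Where all arrays of 1 group were not above background, the fold is a bound: the brighter group's mean against, per array, the higher of the probe's own value and the lowest value among probes above background. No bound is given for Klrb1c, whose brighter group had arrays at background too. Exact permutation tests used the 252 splits of 5 against 5 arrays. Python 3.11.15 and matplotlib 3.10.9 drew the figures.

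The mouse numbers in the titles pair 4 HCC with 4 ICC of the same animals. The correlations of their deviations from the group means were -0.143 to 0.066, against -0.263 to 0.284 for other pairs. The members, lists and tests were chosen with earlier results of these data known. Named are all members called in either comparison, the CD3 genes, Cd4, Cd8a, Cd79a, Ms4a1, Ncr1 and Foxp3, and of each further list the 2 genes that rose most and the 2 that fell most. The other members are given by their differences.

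Alternatives were normexp background correction (offset 50), quantile normalization, 2 other scalings (7 spike-in probes, or the 75th percentile of probes above background on all arrays), 2 other filters, slide, row or mouse as a block, averaging both tumors of mouse 3717, a single model of all 15 arrays, the deposited table, the methods' t-test, the mean of a gene's probes, the upper row alone and leaving out each tumor. Leaving out spots in bright or dim patches and the lower row alone were added after seeing the data. Protein sequences were not used here.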

Additional observations from a re-analysis of the deposited data

Results flagged for a closer look

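In 6 of the 108 sets of 5 tumors checked (36 genes in 3 groups), 1 tumor stood apart from the other 4 of its group by Dixon's test. Chance flags about 1 in 20 such sets, which is 5.4 of 108. Ms4a1 was at 9.25 in the p53f/f HCC of mouse 3716, where the other tumors lay between -2.00 and -0.87, and that spot lay in the bright patch described above. Gata3 was at -2.61 in the p53LKO HCC of mouse 3731, above the range of -4.18 to -3.96 of the others, and at -2.38 in the ICC of mouse 5283, below the range of -1.03 to -0.59. Foxp3 was at -3.20 in the p53LKO HCC of mouse 3975, below the range of -2.80 to -2.70. Pax5 was at -2.26 in the p53LKO HCC of mouse 5283, where the others lay between -5.60 and -4.82, and no tumor of that group was above background. Tigit was at -4.03 in the ICC of mouse 3731, where the others lay between -4.91 and -4.81, and no ICC was above background.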

How the results depend on the processing

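The ICC comparison gave 8 to 14 rises among the members except with probes above background on every array, which gave 1, and the falls numbered 1 except for 2 with quantile normalization and 2 with the slide as a block. Leaving out each tumor gave 9 to 12 rises and 1 to 3 falls. With the mouse as a replicate block there were 9 rises and 1 fall, and besides Icos and Klrd1 the pairing changed no call. Over all probes that block gave 3314 rises and 3944 falls among 32670 tested, against 4225 and 4390 without it. In the HCC comparison the 1 rise became 0 with normexp background, scaling to probes above background on all arrays, probes above background on every array, no filter, slide as a block, row as a block, the methods' t-test with adjustment, the mean of a gene's probes and the mean of the tumors of mouse 3717, and became 3 with spike-in scaling. The 2 falls became 1 with normexp background, quantile normalization, spike-in scaling, probes above background on every array, no filter, all 15 arrays in 1 model, the methods' t-test with adjustment and the mean of the tumors of mouse 3717, and became 4 with scaling to probes above background on all arrays. Leaving out each tumor gave 0 to 1 rises and 1 to 3 falls. Zap70 was called in all 26 other settings, from -4.30 to -3.30. The methods' t-test at their threshold without adjustment gave 1 rise and 3 falls in the HCC comparison and 11 and 1 in ICC, and with adjustment 8 and 1 in ICC. The causes of these differences were not tested.

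Scaling to spike-in probes moved the median of all genes in the HCC comparison from 0.08 to 0.82, and scaling to probes above background on all arrays moved it to -0.17 there and from -0.18 to 0.19 for ICC. Falls made up 81.5% of all probes called in the HCC comparison, 19.0% with spike-in scaling, 92.6% with scaling to probes above background on all arrays, 67.7% with normexp background, 70.6% with quantile normalization, 68.0% with the mean of a gene's probes and 45.8% with probes above background on every array. Probes called higher and lower numbered 1312 and 5774 between the HCC groups, against 934 and 1955 with normexp background, 630 and 7941 with scaling to probes above background on all arrays, 9835 and 2306 with spike-in scaling, 1542 and 3710 with quantile normalization, 1003 and 847 with probes above background on every array and 839 and 4686 with the methods' t-test with adjustment. In ICC they numbered 4225 and 4390, against 2663 and 2950 with normexp background, 6241 and 2253 with scaling to probes above background on all arrays, 1467 and 2866 with probes above background on every array and 2808 and 3123 in the lower row alone. For ICC the shares of falls were 51.0%, 26.5% with scaling to probes above background on all arrays and 66.1% with probes above background on every array.

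Signs of uncalled values turned in the HCC comparison. With spike-in scaling Cd3d became 0.36, Cd3e 0.66, Cd2 0.63, Cd5 0.30, Cd6 0.15, Cd79a 0.27, Klrd1 0.39, Foxp3 0.17 and Gata3 0.079. With row as a block and in the upper row alone Cd3d became 0.089 and Cd2 0.18. Cd2 became 0.11 and Klrd1 0.075 with quantile normalization, Cd3g became -0.019 with slide as a block, and Cd4 became -0.015 with scaling to probes above background on all arrays and -0.31 with the mean of its probes. In ICC, Cd8a became 0.16 with normexp background, 0.29 with scaling to probes above background on all arrays and 0.11 with row as a block, but no ICC array was above background for this probe, so these signs have no meaning. Leaving out each tumor gave ranges for Cd3e of -0.13 to 0.027, Cd2 of -0.48 to 0.11, Cd3g of -0.093 to 0.68 and Cd4 of -0.12 to 0.69 between the HCC groups, and for Cd8a of -0.32 to 0.20 in ICC, at background there. Over all members and settings, 80 of 784 values turned sign in the HCC comparison and 13 of 718 in ICC.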
